A study of Gallus gallus with 21 samples.

Results

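Among 21 RNA-seq libraries from the trunk neural tube of chick embryos, 6 held almost no transcripts of the W chromosome and 15 held them at a steady level, and these sets were compared here. The W share is the percentage of a library's counts that fall on genes annotated to W. The sets were chosen by this measured share alone: a library was called male-like when its W share was under 0.1% and female-like otherwise. The 6 male-like libraries were replicate 9 of the control group (CTRL) and replicates 1, 3, 5, 9 and 10 of the MOXD1 knock-out group (KO). The 15 female-like libraries were 8 of the 9 CTRL and 7 of the 12 KO libraries. The labels record no sex, so both names stand for the W share alone. CTRL embryos carry the genotype label WT, and in KO embryos MOXD1, which encodes a protein related to dopamine beta-hydroxylase, was targeted by CRISPR/Cas9 early in the trunk neural crest. Per the labels' protocols, constructs were injected into the neural tube lumen at Hamburger Hamilton stage 10+ to 11 and electroporated on one side, so a library can mix edited and unedited cells. The labels used here state neither the stage at which embryos were collected nor what control embryos received.

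In birds the female carries one Z and one W chromosome and the male carries a pair of Z chromosomes. Chickens do not silence a whole Z chromosome, and most Z genes are known to be somewhat more abundant in males, by less than the difference in gene copies. The chicken Z also has a male hypermethylated locus, from which long noncoding RNA is made in females, and genes near it are known for unusually even levels between the sexes; whether any gene below belongs to that locus was not tested. The neural tube, the forerunner of the spinal cord, is not a gonad, and whether hormones play a part in the differences below was not tested. The gene IDs of the count table were not paired with symbols, and 0 of 24356 matched the RefSeq table of another chicken assembly, so no ID below is given a name, no tissue marker could be checked, and no gene sequence was matched. All positions are on the GRCg6a assembly.

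No library had an intermediate W share. The male-like libraries stood at 0.00455% in CTRL replicate 9 and at 0.00273%, 0.00332%, 0.00202%, 0.00241% and 0.00412% in KO replicates 1, 3, 5, 9 and 10. The female-like libraries ran from 0.180% over a median of 0.206% to 0.239%. The values next to the limit of 0.1% were thus 0.00455% below it, in CTRL replicate 9 with a 95% Wilson interval of 0.00424% to 0.00489%, and 0.180% above it. These shares chose the sets and are given without a test; counting intervals cover counting error only, since no molecular identifiers are named.

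W genes are described for the same reason without a test, though those that passed the filter on low counts stayed in the gene-by-gene fit below. Of 124 W genes in the annotation, 101 had a count in any library and 45 passed the filter on low counts, a filter that W genes could pass through the female-like libraries alone. Among these 45 the mean level in female-like libraries had a median of 4.86 CPM (counts of each library scaled to one common depth) and a highest value of 863 CPM. In 33 of the 45 all 6 male-like libraries lay below all 15 female-like libraries. The W chromosome was not wholly without counts in male-like libraries. There 61 W genes held 3517 fragments in all, and 1789 of them (50.9%) fell on 1 gene, on the minus strand at chrW:3570685-3580610. That gene stood at 16.7 CPM in male-like and 11.9 CPM in female-like libraries, so it did not follow the W share. It was singled out after its values were seen, and whether its reads come from another place in the genome was not tested.

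The depths of the sets overlapped. Total counts ran from 16346238 to 20970382 in the male-like and from 16164404 to 21133788 in the female-like libraries. None of the other measures, namely total counts, genes at 1 CPM or more, the mitochondrial share, the share of the 20 highest genes and the first 3 principal components of autosomal genes, passed an exact permutation test (adjusted p 0.740 to 0.984 over 8 measures, the Z level included). The mitochondrial share was 8.50% ± 1.63 (SD, n = 6) in male-like and 8.65% ± 2.11 (SD, n = 15) in female-like libraries. CTRL replicate 1 and KO replicate 8, both female-like, stood apart on the first component (33.6% of variance) at 102 and 115, where the other 19 lay from -50.2 to 38.0. KO replicates 4, 5 and 6 had the highest mitochondrial shares of the KO group, at 11.5%, 11.1% and 14.3%, and of these KO replicate 5 is male-like. Counts without these libraries are given beside the results they change.

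Z transcripts as a whole were more abundant in every male-like library than in any female-like one. The Z level is the median log2 CPM of Z genes minus that of autosomal genes in the same library. It stood at 0.0042 in CTRL replicate 9 and at -0.17, -0.20, -0.15, -0.28 and -0.048 in KO replicates 1, 3, 5, 9 and 10. In the female-like libraries it ran from -0.85 over a median of -0.67 to -0.60. CTRL replicate 9 was the highest of the 21 libraries and KO replicate 9 the lowest of the 6 male-like ones, and the sets did not overlap. The means were -0.14 ± 0.10 (SD, n = 6) and -0.69 ± 0.077 (SD, n = 15), with a difference of 0.55 after allowing for group (exact permutation within CTRL and KO over 7128 arrangements, 2-sided p = 0.00014, the smallest these arrangements can give, adjusted p = 0.00112 over 8 measures). Within KO alone, with 5 male-like and 7 female-like libraries, the difference was 0.50 (exact permutation p = 0.00126, the smallest that design can give, adjusted p = 0.0101 over 8 measures). In CTRL, with a single male-like library, the difference was not tested on its own. An earlier look at these libraries had already shown that Z shares follow W shares, so the direction is no independent finding.

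**Figure D1:**
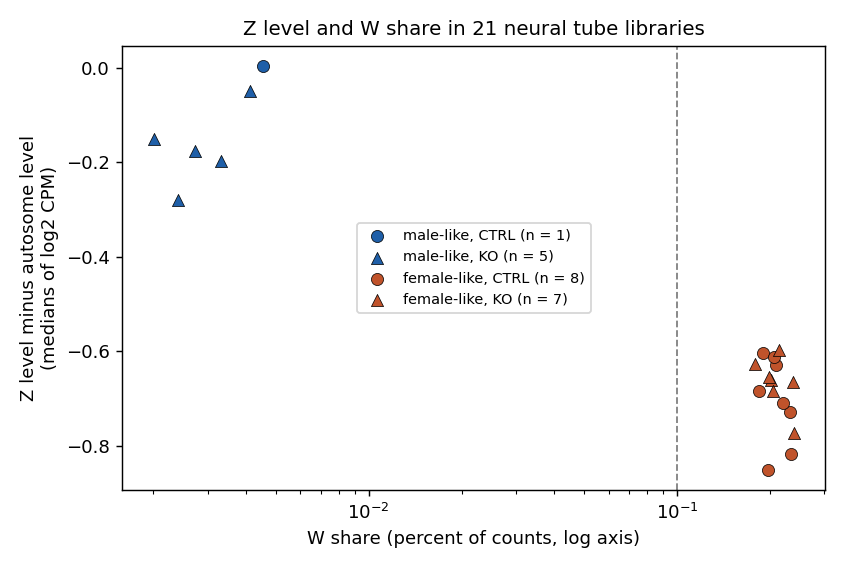
Z level (median log2 CPM of Z genes minus that of autosomal genes, vertical axis) against the W share in percent of counts (log axis), 1 point per library, with circles for CTRL, triangles for KO and a dashed line at the limit of 0.1%. The 6 male-like libraries lie between -0.28 and 0.0042 and the 15 female-like ones between -0.85 and -0.60.

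Per base of exon, the median Z gene stood below the median autosomal gene in both sets. On log2 CPM per kilobase, this gap in level was -0.25 ± 0.049 (SD, n = 6) in male-like and -0.80 ± 0.074 (SD, n = 15) in female-like libraries. The male-like values ran from -0.29 to -0.16 and the highest female-like value was -0.71, so the sets did not overlap. A lower gap in level can come from fewer transcripts per cell or from fewer cells that make them, which bulk tissue cannot tell apart.

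Gene by gene, the fitted difference of most Z genes was above 0, with a median under 2-fold, and 31.6% of those tested were called higher. Of 1245 annotated Z genes, 989 had a count and 651 passed the filter and were tested, with group (CTRL or KO) as a covariate in edgeR's quasi-likelihood test. By this test 206 Z genes were higher and 3 lower in male-like libraries at an adjusted p under 0.05, where 1.44% of all 14523 genes tested were higher and 0.282% lower. Those shares hold the Z genes themselves, 206 of the 209 genes higher, and W genes, 35 of the 41 lower, whose counts chose the sets. Z genes of low level could pass the filter through male-like libraries alone, and how many did so was not counted. This holds for the counts of Z genes below as well. The 3 lower include genes with 0 counts in every male-like library, which were tested only through the female-like ones. Of the 13798 autosomal genes tested 3 (0.0217%) were higher and 3 lower. The median log2 difference of the 651 was 0.57, a 1.48-fold level, and 574 (88.2%) were above 0. Over the 13798 autosomal genes tested the median was -0.027 and 43.7% were above 0. The middle 50% of Z genes, from the lower to the upper quartile, lay between 0.28 and 0.84, and of autosomal genes between -0.15 and 0.10. No autosome came near the Z value. Over 32 autosomes with at least 10 tested genes the medians ran from -0.070 on chromosome 28 to 0.063 on chromosome 31.

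The count of Z genes called fell without the only male-like control. Without CTRL replicate 9 the test called 133 Z genes higher and 1 lower, with a median log2 difference of 0.51. All remaining CTRL libraries are then female-like, so with group in the model the difference between the sets rests on KO libraries. In KO libraries alone 109 were higher and 1 lower, against 0.792% of all genes higher in that fit, a share that holds these Z genes too. Without CTRL replicate 1 and KO replicate 8 the calls were 204 higher and 3 lower, and without KO replicates 4, 5 and 6 they were 156 and 2. Leaving out any other library gave 184 to 215 calls in all.

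The difference was present in each male-like library taken alone. Against the mean of the female-like libraries, the median Z gene was higher by 0.72 on the log2 scale in CTRL replicate 9. It was higher by 0.56, 0.56, 0.55, 0.51 and 0.61 in KO replicates 1, 3, 5, 9 and 10. In female-like libraries the same value ran from -0.16 in CTRL replicate 4 to 0.10 in CTRL replicate 6. Between 489 (75.1%) and 571 (87.7%) of the 651 Z genes lay above the female-like mean in a male-like library, and 34.7% to 60.4% did so in a female-like one. For autosomal genes the share ran from 48.9% to 55.2% over all 21 libraries.

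**Figure D2:**
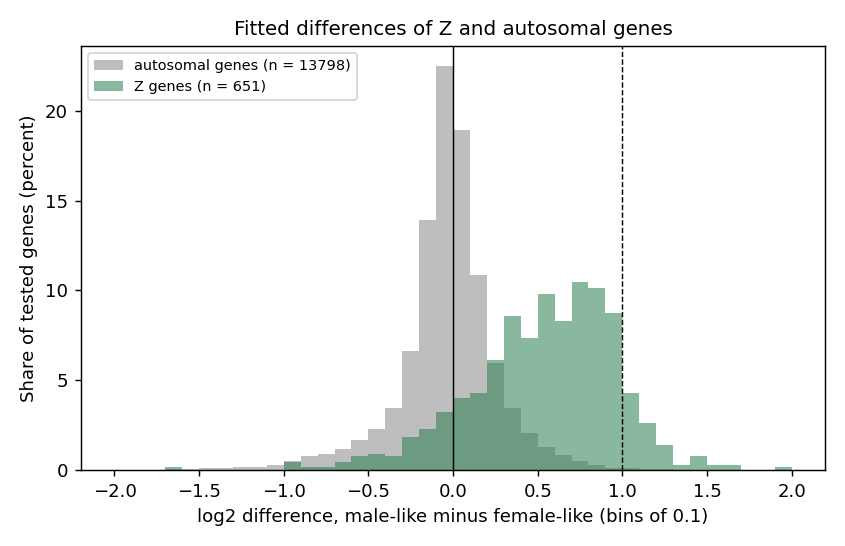
Fitted log2 difference between male-like and female-like libraries, in bins of 0.1, as a percentage of 651 Z genes and of 13798 autosomal genes; values beyond 2 in either direction are not drawn. A solid line marks no difference and a dashed line 2-fold; the Z genes centre on a median of 0.57 and the autosomal genes on -0.027.

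Z genes did not form one step at 2-fold. Of the 388 Z genes whose mean reached 10 CPM, 219 (56.4%) had a log2 difference between 0.2 and 0.8, 110 (28.4%) between 0.8 and 1.2, 48 (12.4%) between -0.2 and 0.2, 7 below -0.2 and 4 above 1.2. Of the 8915 autosomal genes at that level 78.7% lay between -0.2 and 0.2, and 0.146% between 0.8 and 1.2. The 95% interval of the difference lay wholly above 0 for 371 of the 651 Z genes. The same number were above 0 with an unadjusted edgeR p under 0.05, since the intervals derive from that test. For 109 of the 371 the interval also lay wholly below 2-fold, and for the other 262 it reached 2-fold. For 113 Z genes the interval held both no difference and 2-fold, so these libraries do not place them. The interval lay inside 1.5-fold in either direction for 58 Z genes (8.91%), and for 49.9% of autosomal genes.

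A count without a model, on the same libraries and sets, gave the same contrast between chromosomes. In 102 Z genes (15.7%) all 6 male-like libraries had a higher CPM than all 15 female-like ones, against 0.702% of all genes tested, and none of the 102 was outside Z. In 37 genes, 0.255% of those tested, all male-like libraries lay below all female-like ones. These were the 33 W genes, whose counts chose the sets, and 2 Z genes and 2 autosomal genes described below. Of the 2 Z genes, ENSGALG00000051419 passed the filter on low counts through the female-like libraries alone.

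Split by level, the medians of Z genes lay close together while the calls did not. The tertile of Z genes with the lowest means (0.261 to 7.23 CPM) had a median log2 difference of 0.54, the middle tertile 0.55 and the highest tertile (28.9 to 1180 CPM) 0.63. The number called higher went from 25 of 217 (11.5%) in the lowest tertile over 75 of 217 (34.6%) to 106 of 217 (48.8%) in the highest. The median standard error fell along the same order from 0.37 over 0.19 to 0.15. In tertiles of autosomal genes by level, 2 of 4600, 0 of 4599 and 1 of 4599 were called higher, from lowest to highest. Their medians rose in that order too, from -0.062 over -0.035 to -0.0076. By exon length the medians of Z genes were 0.71 for the shortest tertile, 0.55 for the middle and 0.51 for the longest. Those of autosomal genes were -0.053, -0.028 and -0.0058 in the same order. None of these differences between tertiles was tested.

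ENSGALG00000015603 was the Z gene with the smallest p among those higher in male-like libraries, as the rule for naming genes asked. It lies on the minus strand at chrZ:63940607-63946893, with 9 exon records and no overlapping annotated gene. It stood at 33.4 CPM in CTRL replicate 9 and at 34.7, 35.1, 39.1, 42.0 and 35.1 CPM in KO replicates 1, 3, 5, 9 and 10. In female-like libraries it ran from 14.9 over a median of 18.1 to 21.6 CPM. The lowest male-like library thus lay well above the highest female-like one. The log2 difference was 1.00 (SE 0.09, a 1.99-fold level, edgeR adjusted p = 1.66e-07), in 6 of 6 male-like libraries above the female-like median, and 0.99 in KO libraries alone (edgeR adjusted p = 2.39e-04).

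One stretch of Z stood out from the rest. In 5 Mb windows by gene start, medians ran from 0.41 to 0.87 in every window but 1, and 15.4% to 42.9% of the tested genes of a window were called higher. The exception was the window from 25 to 30 Mb, with 38 tested genes, a median of 0.24, 3 genes (7.89%) higher and 3 lower. All 3 Z genes called lower lay in it. They include genes with 0 counts in every male-like library, which were tested only through the female-like ones, as described below. In steps of 1 Mb, the 18 tested genes from 24 to 25 Mb had a median of 0.60 and the 10 genes from 25 to 26 Mb one of 0.34. The 8 genes from 26 to 27 Mb had a median of 0.067 and the 17 genes from 27 to 28 Mb one of 0.14. Steps with under 5 tested genes are not described. These 1 Mb steps were looked at after the 5 Mb windows were seen, and the windows were not tested against each other. The highest window median, 0.87, was that of the 35 genes from 60 to 65 Mb.

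**Figure D3:**
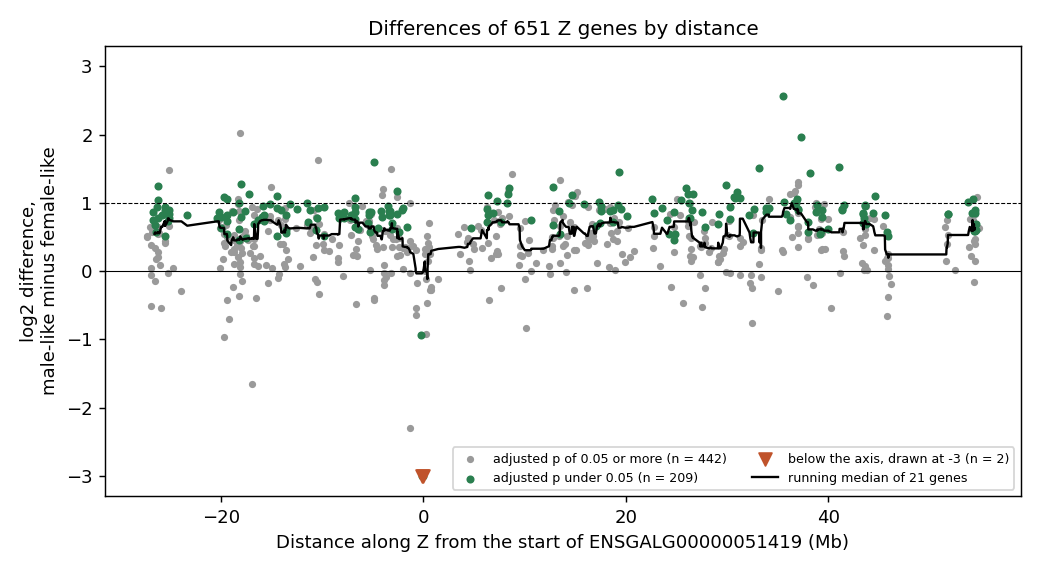
Log2 difference of each of 651 tested Z genes (vertical axis) by distance in Mb along Z from the start of ENSGALG00000051419, with the running median of 21 neighbouring genes. Green points passed an adjusted p of 0.05. The 2 genes beyond the axis, fitted at -11.31 and -5.52, are drawn at -3. Both had 0 counts in every male-like library and were tested only through the female-like ones, so these fitted values are not measured differences. In the 5 Mb window that holds distance 0 the median is 0.24.

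ENSGALG00000051419 was the clearest exception on Z, with counts in all 15 female-like and in 0 of 6 male-like libraries. It lies on the minus strand at chrZ:27317307-27383989, with 14 exon records over 3601 exon bases and no overlapping annotated gene. Its count was 0 in CTRL replicate 9 and 0 in KO replicates 1, 3, 5, 9 and 10, and it was 221 to 543 in each of the 15 female-like libraries. In CPM it ran from 11.0 over a median of 17.1 to 31.9 in female-like libraries, with a mean of 18.4 ± 5.15 (SD, n = 15). A count of 0 over the 6 male-like libraries was taken to allow up to 3 counts, or 0.0273 CPM. This is about a 95% limit and covers counting error only. On that limit the level was at least 676-fold lower there. It passed the filter on low counts through the female-like libraries alone, so its counts are given as a description and its p as no support. As a Z gene it was not counted in the W share. It was picked for its small p in this same comparison, so its split of the 21 libraries by set is no separate support for the sets.

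Beside it, 2 more genes were lower in male-like libraries, both named here by position and chosen after their values were seen. The gene on the minus strand at chrZ:27177112-27307449 had 0 counts in each male-like library and 105 in all in the female-like ones, with 0.365 CPM ± 0.289 (SD, n = 15). On the same limit of 3 counts its level was at least 13.4-fold lower, but KO replicate 4, a female-like library, also had no count. It too passed the filter through the female-like libraries alone, and no p is given for it. It overlaps 1 other gene on its strand, it did not pass the filter on low counts in some of the fits with a library left out, and in KO libraries alone it was not tested. The gene on the plus strand at chrZ:27065681-27123343 stood at 3.62, 2.61, 2.16, 3.22, 0.805 and 3.24 CPM in CTRL replicate 9 and KO replicates 1, 3, 5, 9 and 10. Female-like libraries ran from 3.69 over a median of 5.40 to 7.43 CPM, above each of these, though CTRL replicate 9 came close. Its log2 difference was -0.94 (SE 0.24, edgeR adjusted p = 0.0448), a call just under the threshold. With each library left out in turn edgeR's adjusted p ran from 0.0388 to 0.126, so the call was lost in most of these fits. In KO libraries alone edgeR's adjusted p was 0.209.

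Around ENSGALG00000051419, within 500 kb on either side, the annotation has 23 genes, of which 21 had a count and 13 were tested. None of the 13 was called higher in male-like libraries. The 3 called lower were those just described, 2 of them with 0 counts in every male-like library and tested only through the female-like ones, and the other 10 had log2 differences from -0.93 to 0.51. Counts over all tested Z genes were 206 higher and 3 lower of 651.

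Few autosomal genes passed the test. Of 13798 tested, 6 passed (0.0435%), 3 higher and 3 lower in male-like libraries. An unadjusted p under 0.05 was found for 314 (2.28%), a smaller share than chance alone gives at that limit. The adjustment ran over all 14523 genes tested, and the 209 Z and 35 W genes called eased the threshold for autosomal genes. This also applies to the adjusted p of autosomal genes below. An adjustment over autosomal genes alone was not run. Among the genes called higher, those at chr1:167989491-168020290 and chr1:93356698-93367762 owed passing the filter on low counts to male-like libraries. The calls of these genes are thus no support. For 75.5% of the 13798 autosomal genes the 95% interval of the difference lay inside 2-fold in either direction. Some of the 6 calls were lost when a single library was left out. Without CTRL replicate 9, where the difference between the sets rests on KO libraries, only 1 gene passed, and it was among the 6. Without KO replicate 10 there were 10 calls, 5 of them among the 6. Leaving out both CTRL replicate 1 and KO replicate 8 gave 7 calls, 4 of them among the 6. Leaving out KO replicates 4, 5 and 6 gave 4 calls, 3 of them among the 6. In KO libraries alone 1 gene passed, and 0 of the 6 were kept. The genes at chr1:167989491-168020290 and chr1:93356698-93367762 did not pass the filter on low counts there or without CTRL replicate 9. They were thus not tested in these fits. DESeq2, another test for counts, called 13, of which 5 were among the 6.

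ENSGALG00000014589 was the autosomal gene with the smallest p among those lower in male-like libraries. It lies on the plus strand at chr28:2309232-2317220 with 13 exon records. It stood at 181 CPM in CTRL replicate 9 and at 227, 215, 246, 242 and 192 CPM in KO replicates 1, 3, 5, 9 and 10. In female-like libraries it ran from 253 over a median of 297 to 407 CPM, so the sets did not overlap. The log2 difference was -0.56 (SE 0.12, a level of 0.678, edgeR adjusted p = 0.00669). In KO libraries alone it was -0.51 and did not pass (edgeR adjusted p = 0.081). With each library left out in turn the call held (edgeR adjusted p 0.00314 to 0.0318).

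ENSGALG00000048674 was the autosomal gene with the smallest p among those higher in male-like libraries and with a mean of at least 1 CPM. It lies on the plus strand at chr1:65422008-65425466 with 6 exon records. It stood at 130 CPM in CTRL replicate 9 and at 111, 109, 152, 101 and 95.2 CPM in KO replicates 1, 3, 5, 9 and 10. Female-like libraries ran from 53.6 over a median of 85.2 to 95.7 CPM, so KO replicate 10 lay within their range. The log2 difference was 0.58 (SE 0.14, edgeR adjusted p = 0.0239). The call was lost without CTRL replicate 9 (0.51, edgeR adjusted p = 0.196) and without KO replicate 5 (0.49, edgeR adjusted p = 0.101). It was also lost in KO libraries alone (0.51, edgeR adjusted p = 0.307) and without KO replicates 4, 5 and 6 (0.55, edgeR adjusted p = 0.0599).

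**Figure D4:**
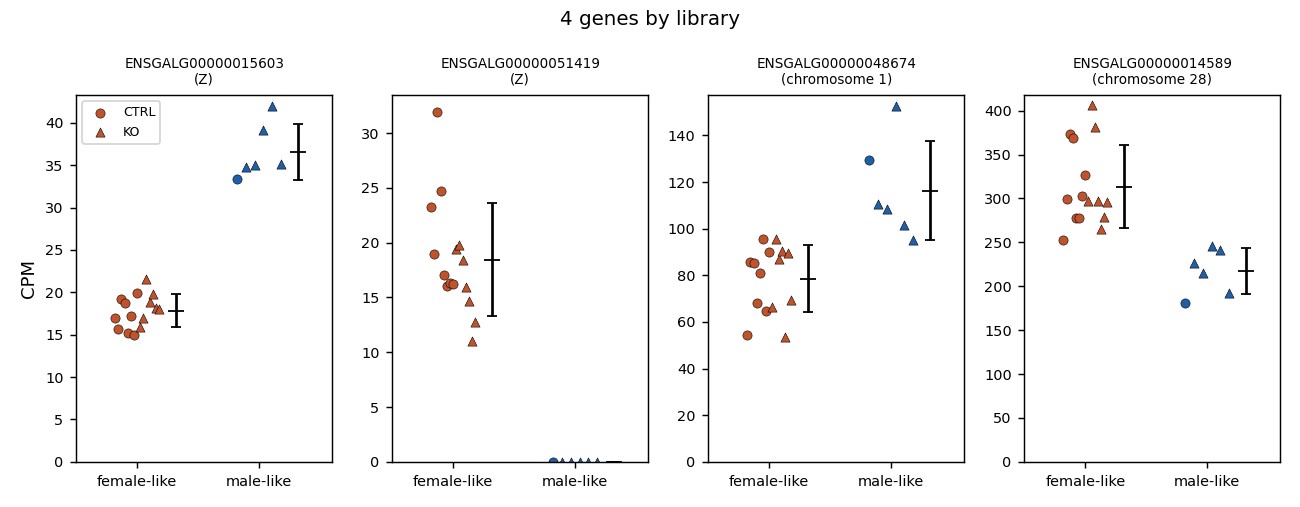
Level in CPM of 4 genes in each library, with circles for CTRL, triangles for KO and a bar with mean and SD at the right of each set (15 female-like, 6 male-like). ENSGALG00000015603 and ENSGALG00000051419 on Z and ENSGALG00000014589 on chromosome 28 show sets without overlap, while 1 male-like library of ENSGALG00000048674 on chromosome 1 lies within the female-like range.

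The other 4 autosomal calls, given by position after their values were seen, were weaker in level or spread. A gene at chr1:167989491-168020290 stood at 0.834, 0.866, 0.704 and 1.39 CPM in KO replicates 1, 3 and 9 and CTRL replicate 9, but at 0.0564 and 0.0636 CPM in KO replicates 5 and 10, within the female-like range of 0 to 0.216 CPM. A gene at chr1:93356698-93367762 ran from 0 to 2.74 CPM in male-like and from 0 to 0.705 CPM in female-like libraries. In each female-like library the former gene had 0 to 4 counts and the latter 0 to 12. Both owed passing the filter on low counts to male-like libraries. A gene at chr1:73969099-73970994 was lower, with 0.664 to 1.77 CPM in male-like and 1.45 to 3.05 CPM in female-like libraries. A gene at chr11:569115-575366, also lower, had 15.1 to 28.2 CPM against 22.6 to 39.1 CPM, and it overlaps other annotated genes. Its call was just under the threshold (edgeR adjusted p = 0.0427). With single libraries left out edgeR's adjusted p ran from 0.0185 to 0.287, so the call was lost in some of these fits. In all 4 the ranges overlapped. A further gene, at chr1:1491840-1533752, did have ranges without overlap, at 59.8 to 68.9 CPM in male-like and 69.9 to 125 CPM in female-like libraries, yet it did not pass (log2 difference -0.29, SE 0.11, edgeR adjusted p = 0.507).

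Genes of the mitochondrial genome, some of which encode proteins of cellular respiration, had no call. Of 29 tested, 0 passed edgeR's test and 0 had an unadjusted p under 0.05, with a median log2 difference of -0.020. The 446 genes on unplaced scaffolds had no count in any library and could not be compared.

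Whether the difference between the sets depends on the knock-out was asked with an interaction of set and group. It gave 0 calls (0%) among 15621 genes with edgeR, 766 of them at an unadjusted p under 0.05, and 0 calls with DESeq2, with 955 at that level. It rests on 1 male-like control, whose spread was assumed to be that of the other libraries, so a missing call does not show that the differences were alike. The median Z gene was higher by 0.72 in CTRL replicate 9 than in the mean of the 8 female-like controls, and by 0.55 in the mean of the 5 male-like KO libraries than in that of the 7 female-like ones. With the set in the model, KO against CTRL gave 0 calls (0%) among 14523 genes with edgeR, with 684 at an unadjusted p under 0.05.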

How the data were processed

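The authors deposited raw fragment counts by gene for 21 libraries, 1 column each, beside exon lengths. Per the file headers, the authors counted with featureCounts 2.0.1 over exons of the Ensembl GRCg6a annotation on the reverse strand, with neither multi-mapping nor multi-overlapping fragments, so fragments that near-identical copies share are left out. The submitters' processing notes also list bcl2fastq, FastQC, STAR, MultiQC and DESeq2. Libraries came from 50 ng of RNA with a stranded kit and 14 PCR cycles, per the labels' protocols.

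Groups and replicate numbers came from the titles. The design text counts embryos. Nothing names a batch, and p-values measure only the spread between these samples. The sets, lists and tests were chosen with earlier results of these data known. Genes passing filterByExpr were fitted with edgeR 4.0.16 (R 4.3.3) on TMM factors with group and set as terms, 2-sided, with Benjamini-Hochberg adjustment over all genes tested and a threshold of 0.05. edgeR's test gives no standard error, so each was derived as the size of the log2 difference over the square root of the F value. The 95% intervals were built from these standard errors. DESeq2 1.42.0 was an alternative. Single values were compared by exact permutation of set within group. Named genes were the Z and the autosomal gene with the smallest p among those higher and among those lower, off W and averaging 1 CPM or more. Lists of symbols planned for Z and W pairs, sex determination and cell types were not analysed here, since the IDs carry no symbols. No pair of libraries within a group agreed within sampling noise (lowest chi-square per degree of freedom 31.2).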

Additional observations from a re-analysis of the deposited data

Results flagged for a closer look

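Of 42 sets of values examined (14 values per library in the 6 male-like, the 8 female-like CTRL and the 7 female-like KO libraries), 3 had 1 library far from the rest, where chance alone gives about 1 in 20. All were positions on principal components of autosomal genes and all were female-like libraries. KO replicate 8 stood at 115 on the first component, where the other female-like KO libraries lay from -45.8 to 23.2. CTRL replicate 3 stood at 53.3 on the second, where the other female-like CTRL libraries lay from -22.3 to 8.00. KO replicate 2 stood at 17.5 on the third, where the other female-like KO libraries lay from -23.2 to -6.76. No value of a male-like library was this far from the other 5.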

How the results depend on the processing

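No alternative beyond those planned was run. The median log2 difference of Z genes ran from 0.505 in KO libraries only to 0.634 with the replicate block over 32 alternatives. The number of Z genes called was 183 to 243 under the other normalizations, filters, DESeq2, no group term and without CTRL replicate 1 and KO replicate 8, and 158 without KO replicates 4, 5 and 6, against 209. It was 110 in KO libraries only and ran from 134 to 215 with each library left out in turn. Against 6 autosomal calls there were 13 with DESeq2, 5 of them among the 6, and 1 in KO libraries only, which was none of the 6. The count ran from 1 to 10 with each library left out. The titles give CTRL and KO shared replicate numbers. Same-numbered libraries deviated together (correlation over 0.1) in 5 of 9 pairs, from -0.478 to 0.472, and in 1 of 9 the own number was the best match. The title numbers are thus not taken to pair embryos. The column headers of the counts number the libraries otherwise. Title replicates 1, 2, 3 and 7 have the same header number in both groups, with correlations of 0.39, 0.472, 0.345 and 0.203. In the other pairs they ran from -0.478 to 0.147. Pairing by header number was not tested. With the replicate block, which used title numbers, 4 Z genes and 1 autosomal gene, none of the 6, passed. In that fit each number takes a term and few libraries are left to measure spread. The Z level kept its direction and its side of the threshold in 25 alternatives, and the interaction gave 0 calls in all 4. Of 32 alternatives, ENSGALG00000015603 passed in all but the replicate block, ENSGALG00000014589 in 30 and ENSGALG00000048674 in 27. Genes on unplaced scaffolds gave no value under any alternative. Genes below about 10 CPM had the widest intervals.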

Other observations

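For 12 of the 45 tested W genes the libraries did not separate by set, some of them with means below 1 CPM in both sets. In male-like libraries 5 W genes had a mean of at least 1 CPM. Male-like against female-like, these stood at 16.7 against 11.9, 2.83 against 1.91, 1.91 against 239, 1.24 against 4.86 and 1.21 against 202 CPM. Some were thus far below their female-like level. The source of W reads in male-like libraries was not tested.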
